A study of Mus musculus with 18 samples.

Results

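The comparison described here was that of methotrexate-treated with untreated mice on a high fat diet, read across all genes of the liver. Its members were 9 of the 18 liver samples of the series, chosen by their titles: 4 HFD mice and 5 HFD MTX50 mice. All were male C57BL/6 mice that ate a diet with 60% of fat from 6 weeks of age. After 10 weeks on the diet the HFD MTX50 mice received 5 rounds of methotrexate at 50 mg/kg intraperitoneally, and livers were taken 1 week after the last of them. The rounds were weekly in the methods. The HFD mice are labelled as having no treatment, and the labels name no vehicle injection, so that the drug and the injections cannot be told apart. The other 9 samples, 4 LFD and 5 LFD MTX50 mice on a diet with 10% of fat under the same schedule, entered the model for the spread between mice and served for the comparison between diets. Each mouse gave 1 one-colour microarray of whole liver RNA. In whole tissue, fewer cells of a type and less RNA per cell cannot be told apart.

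Methotrexate is an antifolate: it blocks folate metabolism and with it thymidylate and purine synthesis. The liver stores and clears it, and it is the organ that answers systemic inflammation with the acute phase response, in which interleukin 1 and interleukin 6 drive hepatocytes, largely through NF-kB and STAT3, to release plasma proteins such as fibrinogen, serum amyloid and complement components. Metallothioneins, small cysteine-rich proteins that bind zinc and copper, are raised in liver by metals, glucocorticoids and the same cytokines. A liver made fatty by diet also carries, under the nuclear receptor PPARG, a set of lipid droplet genes otherwise typical of adipocytes.

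A level is given as log2 of the processed spot signal relative to the 75th percentile of its array, so a difference of 1 is 2-fold. Arrays limit precision through their number, and 0 spots were saturated on any array. Of the probes, 86.8 to 89.6% lay well above background in HFD mice and 84.6 to 90.6% in HFD MTX50 mice. The hepatocyte markers stood at a mean level of 5.89 to 6.21 in HFD and 5.94 to 6.50 in HFD MTX50 mice. The arrays lay on 6 slides: HFD mice 1 and 2 on slide 4, HFD mice 3 and 4 with HFD MTX50 mice 1 and 2 on slide 5, and HFD MTX50 mice 3, 4 and 5 on slide 6. The within-slide difference given below is that of the 2 treated and 2 untreated mice on slide 5, and those 4 mice are also part of the whole comparison. Nothing in the labels ties mice to cages or days, and p-values measure the spread between these mice.

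Methotrexate was followed by changes in 236 genes at an adjusted p below 0.05 and at least 2-fold on any probe, of which 99 were higher and 137 lower in HFD MTX50 than in HFD livers. They were 1.2% of the 19598 genes tested (limma, Benjamini-Hochberg adjustment over all kept probes). Without the adjustment, 414 genes passed both limits. Under quantile normalization the split was 136 higher and 112 lower. The median difference over all genes was -0.04, and on the brightest probe of each gene, without the fold limit, 4.83% of genes were higher and 6.13% lower at the adjusted p. These last shares are the background for the members of the gene lists below, and "called" means past that adjusted p.

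The counts rested on single untreated mice and on the pooled spread. Without HFD mouse 3 or without HFD mouse 4 they were 77 each, 154 without HFD mouse 2, 371 without HFD mouse 1 and 375 without HFD MTX50 mouse 1. With the 9 arrays of the comparison alone limma called 0 genes, with 399 at an unadjusted p below 0.05 and 2-fold and a smallest adjusted p of 0.0688. With the slide as a random block 256 genes were changed, 184 of them among the 236, and with it as a fixed block 460, of which 116 were among the 236. Slide 5 alone holds both groups, so with the fixed block the difference is that of its 2 treated and 2 untreated mice. Only the spread then draws on other arrays, and fixed-block counts are no separate reading of all 9 mice. On slide 5 alone limma called 0 (844 at an unadjusted p below 0.05 and 2-fold). Of the 120 called genes named by rule, 24 kept the call without each mouse in turn, and each of the other 96 lost it without HFD mouse 3, HFD mouse 4 or both. With the slide as a random block 15 of the 120 lost the call and with it as a fixed block 53, among them 12 of the 30 largest changes: Cxcl1, Foxq1, Socs3, Dnajc12, Atp11a, Arhgap19, Ppp1r3g, Vmn2r17, Olig1, Vat1l, Cyp4a12a and Gm10578. Levels are read on the brightest probe, and another probe was not called for the called genes Car1, Cidec, Cp, Cyp3a13, Isg15, Itgb3, Kmo, Loxl2, Mt1, Pla2g7, Ppargc1a, Psat1, Scarb1, Shmt1 and Socs2. Called list members beyond the 6 largest of a list were named after their values were seen. A gene may stand in several lists.

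**Figure D1:**
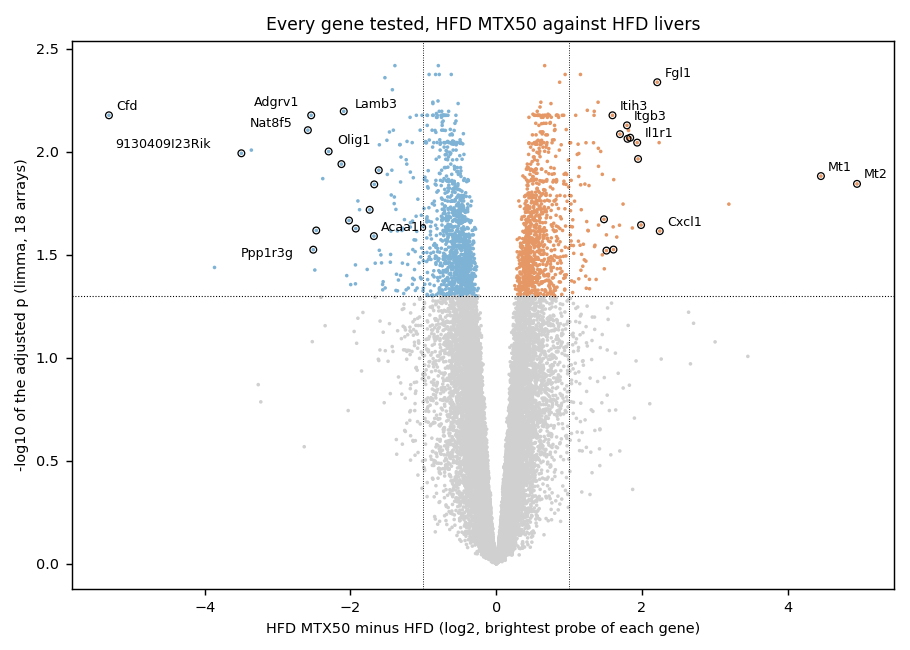
Each point is 1 of the 19598 genes on its brightest probe, with the difference between 5 HFD MTX50 and 4 HFD livers (log2) on the x axis and -log10 of the adjusted p on the y axis. Dotted lines mark an adjusted p of 0.05 and 2-fold, orange and blue points are genes called higher and lower, and circles are the 15 rises and 15 falls named by rule, with Mt2 and Mt1 at the right and Cfd at the left edge.

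The 5 treated mice did not shift alike. Over the 15 largest rises and 15 largest falls, HFD MTX50 mouse 5 lay farthest from the HFD mean in 19 of the 30 genes and mouse 4 nearest to it in 21. The median shift of these genes, in the direction of the change, ran from 0.97 in mouse 4 to 2.76 in mouse 5. Mice 4 and 5 shared slide 6, so the gap between them lay within a slide.

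The rises were led by genes of the acute phase. Of 34 genes of the acute phase list tested, 18 were called higher and 0 lower, with a median difference of 0.99 and a range from -0.07 to 4.95. The list holds plasma proteins, receptors and a feedback inhibitor of their cytokines and the metallothioneins, which are not plasma proteins. The count was 9 without HFD mouse 3 or 4, 15 with the slide as a random block and 7 with it as a fixed block, and the median of the list on slide 5 was 0.88. All 18 called members also had a positive difference between LFD MTX50 and LFD.

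Itih3 encodes a heavy chain of the inter-alpha-trypsin inhibitors, which bind hyaluronan in plasma. Its level was 4.57, 4.31, 4.09 and 4.53 in HFD mice 1 to 4 and 5.68, 6.37, 5.86, 5.09 and 6.85 in HFD MTX50 mice 1 to 5. Every treated mouse lay above every untreated one, a difference of 1.60 ± 0.27 (SE, adjusted p 0.00665, exact two-sided permutation p 0.0159, 4 against 5 mice) and of 1.71 within slide 5. The smallest p that 4 against 5 mice allow in that test is 0.00794. The largest rises and falls, Itih3 among them, were named only if the groups did not overlap. For these genes the lack of overlap was thus set by the choice, and the permutation p largely so. Neither adds separate support to their differences here or below.

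Fgl1, a fibrinogen-like protein that hepatocytes secrete, is on no list and was among the largest rises. It lay at 4.25, 3.69, 4.07 and 4.62 in the HFD mice and 5.83, 6.72, 6.07, 5.74 and 7.49 in the HFD MTX50 mice, again without overlap. The difference was 2.21 ± 0.32 (SE, adjusted p 0.0046, exact permutation p 0.00794), and it was 1.93 within slide 5. Lbp, which carries bacterial lipopolysaccharide to its receptor, went from -0.17, 0.04, 0.24 and 0.36 to 1.46, 2.35, 0.87, 0.75 and 2.18, a difference of 1.40 ± 0.28 (adjusted p 0.00962). Apcs, serum amyloid P, lay at -0.42, -0.29, 0.04 and -0.15 and 1.76, 1.93, 0.46, -0.13 and 2.25, and although it was called higher by 1.46 ± 0.40 (adjusted p 0.0317), HFD MTX50 mouse 4 lay within the HFD range and the call was lost without HFD mouse 2, 3 or 4 or HFD MTX50 mouse 2 or 5.

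The 3 chains of fibrinogen rose together but by less. Fga differed by 1.02 ± 0.20 (adjusted p 0.00904), Fgb by 0.77 ± 0.15 (adjusted p 0.00904) and Fgg by 0.57 ± 0.13 (adjusted p 0.019). In each of them the lowest treated mouse was above the highest untreated mouse, by a narrow margin in Fga, where HFD MTX50 mouse 4 was at 2.93 and HFD mouse 4 at 2.91. Of the other called members, Steap4 differed by 1.26 ± 0.32, Saa3 by 1.13 ± 0.34, Itih4 by 0.96 ± 0.21, ceruloplasmin (Cp) by 0.83 ± 0.14, hemopexin (Hpx) by 0.75 ± 0.23, Serpina10 by 0.72 ± 0.20 and C3 by 0.59 ± 0.14.

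Some classical members of the response were not called. Saa1 lay at 2.75, 3.31, 3.91 and 3.26 in HFD and 4.74, 4.85, 3.28, 3.56 and 8.49 in HFD MTX50 mice, with mouse 5 far above the rest and mice 3 and 4 inside the HFD range (adjusted p 0.119). Saa2 (adjusted p 0.104), Lcn2 (adjusted p 0.179) and Orm1 (adjusted p 0.264) had their highest values in the same mouse, at 8.44, 5.23 and 6.08. These 4 genes were named after their values were seen.

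The receptors and the inhibitor of the response moved with its products. Il1r1, the signalling receptor of interleukin 1, was at -1.09, -1.82, -1.40 and -1.28 in HFD and 0.53, 1.23, -0.22, -0.68 and 1.82 in HFD MTX50 mice. It was higher in all 5 treated mice, by 1.94 ± 0.37 (SE, adjusted p 0.00903, exact permutation p 0.0159). Il6ra, the binding chain of the interleukin 6 receptor, differed by 1.21 ± 0.34 (adjusted p 0.0335). Socs3, which STAT3 induces and which shuts off signalling at the interleukin 6 receptor, was at -1.69, -1.63, -1.86 and -1.35 in HFD and 0.00, -0.45, -0.46, 0.72 and 1.24 in HFD MTX50 mice. Its difference was 1.84 ± 0.34 (SE, adjusted p 0.00854, exact permutation p 0.00794) and 1.38 within slide 5. Il1r1, Socs3, Itih3 and Fgl1 kept their calls without each mouse in turn, and Socs3 lost its call with the slide as a fixed block.

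The 250 bases before the starts of the called acute phase genes were read from the RefSeq promoter table of build GRCm38.p6. They were searched for the letters of a STAT site, TTCNNNGAA, a palindrome that reads alike on both strands. The table holds windows for 16 of the 18 called acute phase genes, and 6 of the 16 (37.5%) carried the letters: Apcs, Fga, Fgb, Itih4, Socs3 and Steap4. Of all 27025 genes with a window, 8.13% did. A match of letters is a description and not a binding site. The list was made of known genes of the response, and no share is given for its members that were not called. The share therefore does not tie the letters to the rise. The windows of Fga (chr3:83025903-83026152, plus strand), Fgb (chr3:83049864-83050113, minus strand) and Itih4 (chr14:30886226-30886475, plus strand) are shown, with the match in capitals, as genes of plasma proteins that rose, and the matches begin 234, 162 and 51 bases before the start.
Fga: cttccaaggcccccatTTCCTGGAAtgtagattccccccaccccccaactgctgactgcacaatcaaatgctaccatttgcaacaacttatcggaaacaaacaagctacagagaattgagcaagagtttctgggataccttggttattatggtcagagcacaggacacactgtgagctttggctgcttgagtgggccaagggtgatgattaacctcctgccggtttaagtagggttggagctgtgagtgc
Fgb: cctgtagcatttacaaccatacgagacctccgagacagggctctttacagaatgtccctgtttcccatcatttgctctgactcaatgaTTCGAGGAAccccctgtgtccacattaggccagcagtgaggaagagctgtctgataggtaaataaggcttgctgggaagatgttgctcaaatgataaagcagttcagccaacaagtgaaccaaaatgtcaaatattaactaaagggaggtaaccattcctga
Itih4: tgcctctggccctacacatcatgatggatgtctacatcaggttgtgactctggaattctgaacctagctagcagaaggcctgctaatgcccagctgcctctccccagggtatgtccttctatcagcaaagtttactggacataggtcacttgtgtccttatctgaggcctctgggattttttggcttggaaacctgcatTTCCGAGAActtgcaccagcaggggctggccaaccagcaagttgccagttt

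**Figure D2:**
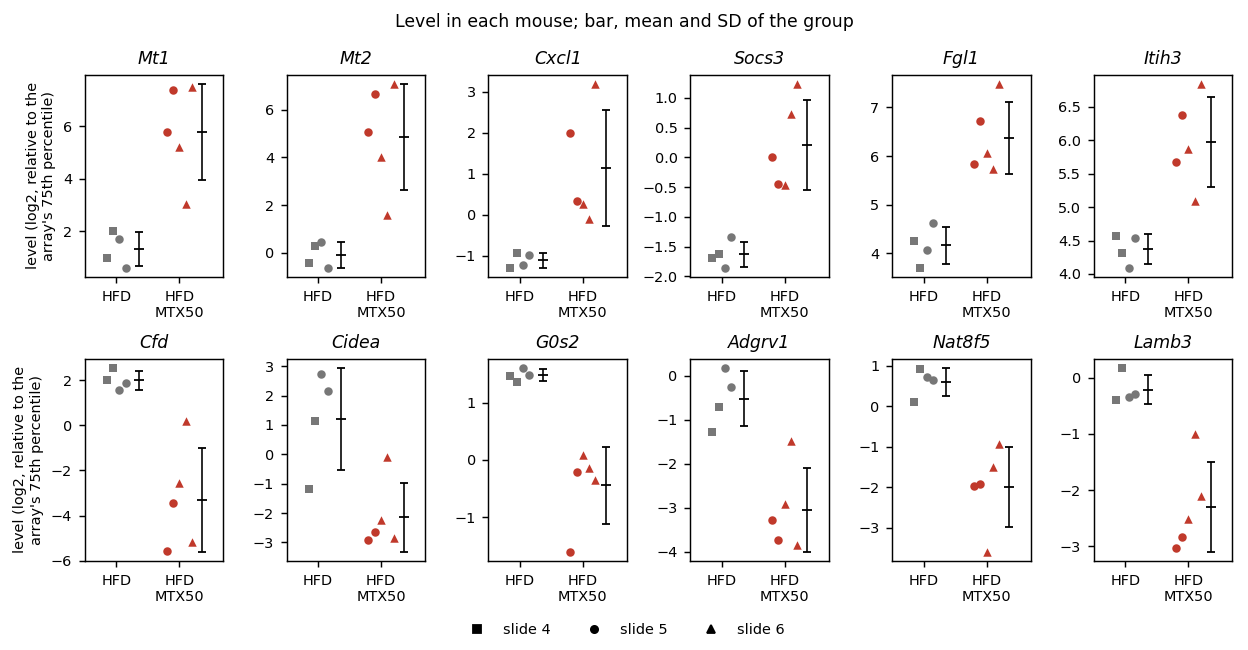
Level of 12 genes in each HFD (grey, n = 4) and HFD MTX50 (red, n = 5) liver, on the log2 scale relative to the array's 75th percentile, with the mean and SD of the group beside the points and the slide shown by the marker. The upper 6 genes lay higher and the lower 6 lower in HFD MTX50 livers, and in 11 of the 12 the groups did not overlap, with Cidea the exception at -1.19 in HFD mouse 1 and -0.09 in HFD MTX50 mouse 4. Lack of overlap was a condition for naming the largest rises and falls.

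The 2 metallothioneins had the largest rises of all genes named by the rule. Mt2 was at -0.45, 0.30, 0.43 and -0.63 in HFD and 5.06, 6.65, 4.00, 1.56 and 7.06 in HFD MTX50 mice. No treated mouse fell within the HFD range, and the treated mice themselves spread over more than 5 units, from mouse 4 to mouse 5. The difference was 4.95 ± 1.08 (SE, adjusted p 0.0143, exact permutation p 0.0159), which is 31.0-fold. Mt1 was at 0.98, 2.03, 1.71 and 0.61 and 5.78, 7.40, 5.22, 3.04 and 7.51, with the same order of treated mice at the ends, a difference of 4.46 ± 0.95 (SE, adjusted p 0.0131) on its brightest probe. Its other probe differed by 0.21 (adjusted p 0.637), so that the probes of Mt1 disagree. Within slide 5 the differences were 5.95 and 5.43. Both calls were lost without HFD mouse 4.

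Other metal genes rose by less. Of 25 genes of metal and iron handling 6 were called higher and 0 lower, the metallothioneins and Cp among them, with a median of 0.32 and 4 called without HFD mouse 4. Slc39a14, the zinc and iron importer that interleukin 6 raises in liver, was at 2.54, 2.17, 1.71 and 2.08 in HFD and 3.32, 3.34, 3.13, 2.73 and 3.81 in HFD MTX50 mice, a difference of 1.14 ± 0.24 (adjusted p 0.0119) that was not called without HFD mouse 3. Slc30a1, the zinc exporter of the plasma membrane, differed by 0.83 ± 0.14 (adjusted p 0.00665) and Slc40a1, the iron exporter ferroportin, by 0.81 ± 0.14 (adjusted p 0.0078), both without overlap and both called without each mouse in turn. Hamp, the hepcidin that removes ferroportin from the membrane, overlapped between the groups, at 5.52, 4.24, 4.21 and 4.79 and 6.36, 6.64, 6.73, 5.00 and 3.88 (adjusted p 0.134), and was named after its values were seen.

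Metal-responsive genes are read by the factor MTF1 at short elements. The 250 bases before the start of Mt2 (chr8:94172368-94172617, plus strand, GRCm38.p6) held 3 matches to TGCACNC or TGCGCNC on either strand, which begin 223, 128 and 50 bases before the start and stand in capitals. They are shown since Mt2 had the largest rise, and 23.8% of all genes with a window held at least 1 such match. Mt1 and Slc30a1 held one as well, so that 3 of the 4 called metal genes with a window did. No share is given for the metal genes that were not called, so this does not tie the matches to the rise.
Mt2: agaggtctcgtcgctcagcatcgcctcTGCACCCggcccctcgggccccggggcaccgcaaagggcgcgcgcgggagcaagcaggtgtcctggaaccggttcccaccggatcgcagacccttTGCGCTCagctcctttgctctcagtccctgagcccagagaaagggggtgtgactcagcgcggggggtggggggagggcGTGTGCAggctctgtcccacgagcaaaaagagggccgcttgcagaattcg

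Complement and coagulation factors, also plasma proteins of the hepatocyte, rose in number but by little. Of 34 tested, 11 were called higher and 0 lower, with a median of 0.29 and the largest difference at 1.03. The count was 2 without HFD mouse 3 or 4, 3 without HFD MTX50 mouse 5 and 4 without HFD mouse 2, and 4 with the slide as a fixed block. Cfi, the protease that cleaves C3b, was at 5.75, 5.64, 5.44 and 5.58 in HFD and 6.14, 6.59, 6.37, 6.16 and 6.50 in HFD MTX50 mice, a difference of 0.75 ± 0.12 (SE, adjusted p 0.00583, exact permutation p 0.00794) with little spread in either group. C1ra, a protease of the first component, differed by 0.87 ± 0.17 (adjusted p 0.00981). C8b, of the membrane attack complex, differed by 1.03 ± 0.27 and overlapped between the groups, as did Serpinf2, the plasmin inhibitor, at 0.77 ± 0.19. C4b (0.61 ± 0.18), C2 (0.51 ± 0.14), kininogen (Kng1, 0.45 ± 0.10), plasminogen (Plg, 0.44 ± 0.12), prothrombin (F2, 0.41 ± 0.12) and Cfb (0.36 ± 0.10) were among the rest. Cfi and C1ra kept their calls without each mouse in turn.

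**Figure D3:**
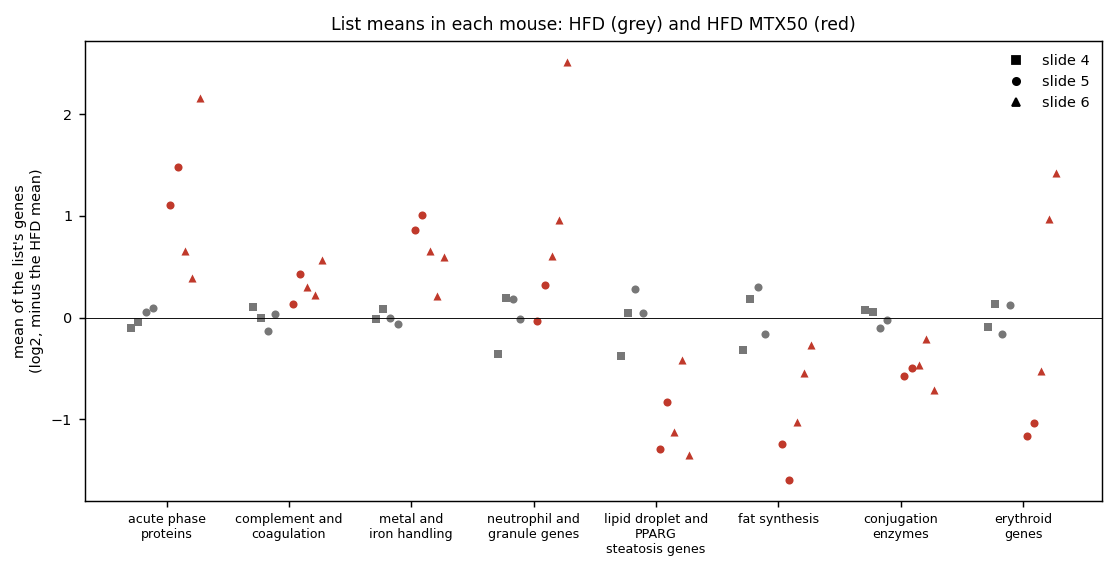
Mean level of the genes of 8 lists in each mouse, less the mean of the 4 HFD mice (log2, y axis), with HFD in grey, HFD MTX50 in red and the slide as marker. Treated mice lay from 0.39 (mouse 4) to 2.16 (mouse 5) in the acute phase list, and from -1.16 (mouse 1) to 1.43 (mouse 5) in the erythroid list, where the signs split among them.

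Chemokines and leukocyte genes gave an uneven picture. Of 22 chemokine genes tested 3 were called higher and 0 lower, with 0 called without HFD mouse 4 and 1 without HFD mouse 3. Cxcl1, which attracts neutrophils, was at -1.30, -0.93, -1.23 and -0.99 in HFD and 2.00, 0.33, 0.26, -0.10 and 3.19 in HFD MTX50 mice, without overlap and with mouse 5 highest. Its difference was 2.25 ± 0.57 (SE, adjusted p 0.0243, exact permutation p 0.0159). Cxcl13, which attracts B cells, went from -3.69, -4.53, -4.54 and -4.70 to -1.13, -2.05, -3.35, -2.39 and -2.96, a difference of 1.99 ± 0.50 (adjusted p 0.0227) and of 3.03 within slide 5. Ccl6, a chemokine of macrophages, differed by 1.40 ± 0.29 (adjusted p 0.0118). Cxcl1 was not called without HFD mouse 3 or 4, Cxcl13 not without HFD mouse 2, 3 or 4 and Ccl6 not without HFD mouse 4. Cxcl1 also lost its call with the slide as a fixed block.

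Of 19 neutrophil and granule genes 0 were called by limma (5 higher and 0 lower at an unadjusted p below 0.05, and 0 by the methods' t-test without adjustment). S100a8 was at -3.49, -1.33, -2.28 and -3.22 in HFD and -2.52, -1.57, 0.40, 1.87 and 3.94 in HFD MTX50 mice, so that treated mice 1 and 2 on slide 5 lay within the HFD range and mice 3, 4 and 5 on slide 6 above it. S100a9 followed the same order, at -1.87, -0.18, -0.94 and -1.63 and -1.45, -0.38, 1.52, 2.93 and 4.93, and Ngp was not well above background in any HFD mouse and in 3 of 5 treated mice. The within-slide differences of S100a8, S100a9 and Ngp were 0.70, 0.37 and 0.37. Without HFD MTX50 mouse 1, 6 were called higher, without HFD MTX50 mouse 2 1 was, and without HFD mouse 1 1 was called lower. The mean level of 5 neutrophil markers ran from -4.11 to -2.96 in HFD and from -3.62 to 0.70 in HFD MTX50 mice. The part of these markers in the acute phase and chemokine results was not tested.

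Of 23 macrophage genes Cd9 was called higher (1.16 ± 0.34, adjusted p 0.0376) and 22 were not called, with a median of 0.49. Cd9 was not called without HFD mouse 1, 2, 3 or 4 or HFD MTX50 mouse 1, 2 or 5, and the count of the list was 0 without HFD mouse 2, 3 or 4 or HFD MTX50 mouse 5, 5 without HFD MTX50 mouse 2 and 7 without HFD MTX50 mouse 3. The 6 Kupffer cell markers had 0 called, with mean levels of -0.04 to 0.43 in HFD and 0.38 to 1.45 in HFD MTX50 mice. Marco, the scavenger receptor, showed the spread: 0.48, 0.40, 0.77 and 0.50 in HFD and 3.37, 0.89, 0.43, 1.96 and 1.86 in HFD MTX50 mice (adjusted p 0.0616). Of 19 lymphocyte genes Il7r was called higher (0.84 ± 0.26), a call lost without HFD mouse 2, 3 or 4 or HFD MTX50 mouse 1, 3, 4 or 5. T and NK cell markers had 0 of 6 called and overlapped between groups in their mean. Of 12 genes of class II antigen presentation limma called 0 (4 at an unadjusted p below 0.05, and 2 by the methods' t-test). Of 32 interferon-stimulated genes 3 were called higher, Stat2 (0.53 ± 0.15), Irf9 (0.50 ± 0.15) and Isg15 (0.41 ± 0.11), with a median of 0.41 and 0 called without HFD mouse 2, 3 or 4 or HFD MTX50 mouse 5 and 5 without HFD mouse 1 or HFD MTX50 mouse 3, and 10 called higher with the slide as a fixed block.

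Several of the largest rises belong to none of these groups. Foxq1, a forkhead transcription factor, was at -1.37, -1.13, -1.86 and -1.41 in HFD and 1.25, -0.28, 1.10, 0.92 and -0.46 in HFD MTX50 mice, a difference of 1.95 ± 0.40 (adjusted p 0.0108). Itgb3, the integrin beta 3 chain, was at -2.15, -2.47, -1.94 and -2.52 and -0.36, 0.62, -1.0, -1.47 and -0.17, a difference of 1.80 ± 0.32 (SE, adjusted p 0.00744), and rose in every treated mouse beyond the HFD range. Pla2g7, the secreted hydrolase of platelet-activating factor, differed by 1.70 ± 0.31 (adjusted p 0.00821) and Fam222a, dim in HFD mice at -3.47, -4.26, -4.37 and -4.53, by 1.80 ± 0.34 (adjusted p 0.00865). Dnajc12, a co-chaperone (1.61 ± 0.44), Atp11a, a phospholipid flippase (1.51 ± 0.41), and Arhgap19, a GTPase-activating protein (1.48 ± 0.36), complete the 15 rises. The other probes of Itgb3 and Pla2g7 differed by 0.14 (adjusted p 0.583) and 0.23 (adjusted p 0.541) and were not called. On the brightest probe the calls of Itgb3, Pla2g7 and Fam222a held without each mouse in turn, Foxq1 was not called without HFD mouse 3, Dnajc12 and Atp11a not without HFD mouse 2, 3 or 4, and Arhgap19 not without HFD mouse 3 or 4. Foxq1, Dnajc12, Atp11a and Arhgap19 also lost the call when the slide was a fixed block.

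**Figure D4:**
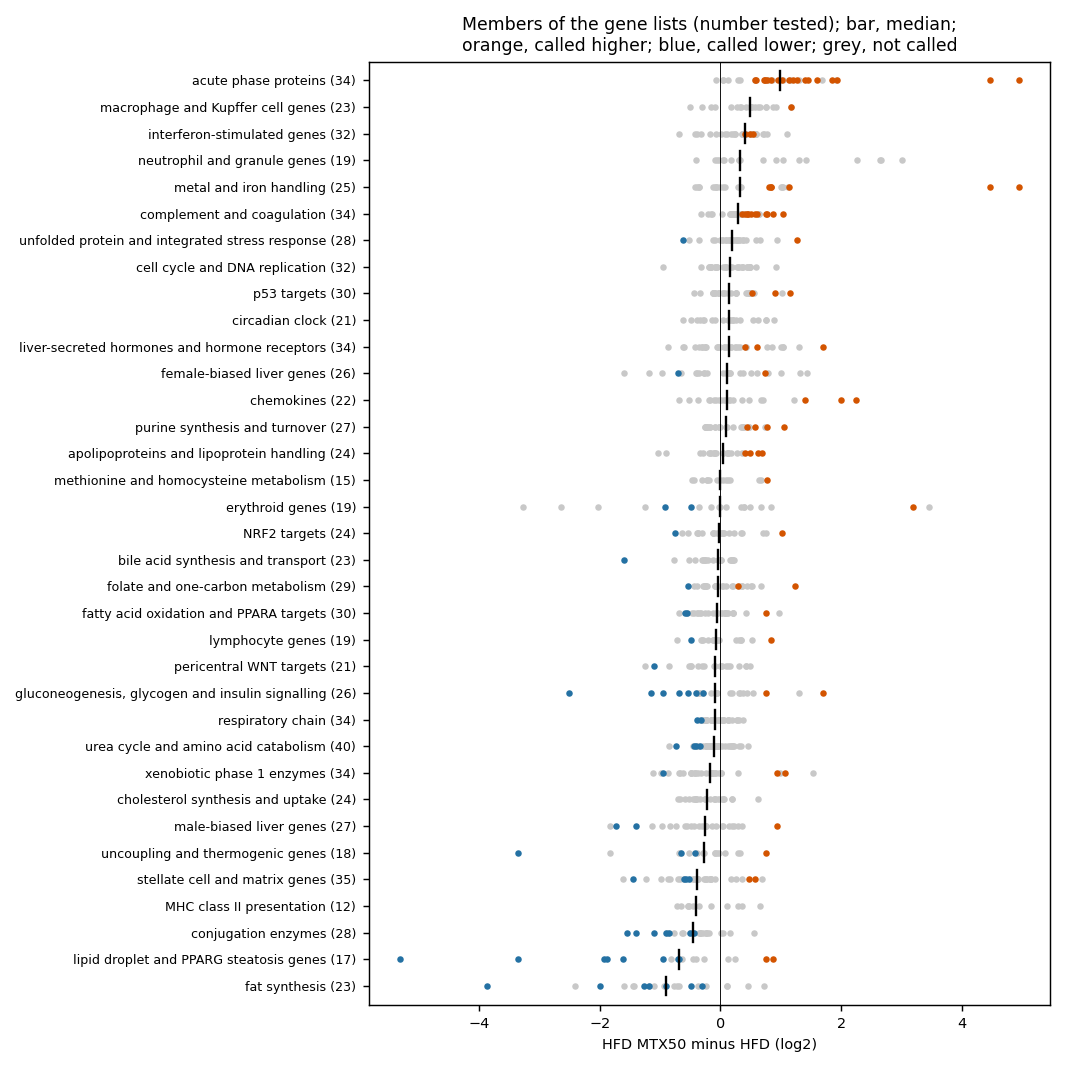
Difference between HFD MTX50 and HFD livers (log2, x axis) of each tested member of the 35 gene lists, ordered by median (bar), with members called higher in orange, called lower in blue and not called in grey, and the number tested in parentheses. Acute phase proteins lay at the upper end with a median of 0.99, and the lipid droplet list (-0.68) and fat synthesis (-0.90) at the lower end.

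The largest fall was that of a gene of fat-laden cells. Cfd, adipsin or complement factor D, an abundant product of adipocytes, was at 2.03, 2.55, 1.55 and 1.90 in HFD and -5.58, -3.43, -2.56, 0.19 and -5.16 in HFD MTX50 mice. It fell in each of the 5, least in mouse 4, and the difference was -5.32 ± 0.87 (SE, adjusted p 0.00665, exact permutation p 0.0159), 39.8-fold lower, with -6.23 within slide 5. The call held without each mouse in turn.

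Cfd belongs to the lipid droplet and PPARG list, of whose 17 genes 8 were called lower and 2 higher, with a median of -0.68. Of the 10, the number called was 3 without HFD mouse 4 and 4 without HFD mouse 3, all of them lower. Cidea, a lipid droplet fusion protein, was at -1.19, 1.13, 2.74 and 2.17 in HFD and -2.90, -2.66, -2.22, -0.09 and -2.86 in HFD MTX50 mice, overlapping through HFD mouse 1 and treated mouse 4, and differed by -3.36 ± 0.67 (adjusted p 0.00981). Its relative Cidec differed by -0.95 ± 0.21 on its brightest probe (adjusted p 0.0139) and by -3.51 on the other (adjusted p 0.0539), and was not called without HFD mouse 3 or 4. G0s2, the inhibitor of adipose triglyceride lipase, was at 1.47, 1.36, 1.61 and 1.49 in HFD and -1.61, -0.21, 0.08, -0.14 and -0.35 in HFD MTX50 mice, with tight HFD values and treated mouse 1 apart, and fell by 1.93 ± 0.49 (SE, adjusted p 0.0236), a call lost without HFD mouse 3 or 4. Pnpla2, that lipase itself, was higher by 0.76 ± 0.19 (adjusted p 0.0226).

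Enzymes and regulators of droplet filling fell with them. Mogat1, which makes diacylglycerol, differed by -1.88 ± 0.44 (adjusted p 0.0191), Fitm1 and Fitm2, which help droplets form in the endoplasmic reticulum, by -1.61 ± 0.34 and -0.68 ± 0.21, and Pparg by -0.70 ± 0.13 (adjusted p 0.00903). Pparg was at 0.77, 0.94, 1.01 and 0.96 in HFD and 0.37, 0.19, 0.27, 0.52 and -0.24 in HFD MTX50 mice, without overlap. Adipoq, adiponectin, went the other way, at -4.54, -4.41, -4.55 and -4.51 and -3.93, -3.51, -3.62, -3.91 and -3.14 (0.88 ± 0.20, adjusted p 0.0163). Among the 6 adipocyte markers Adipoq was thus higher and Cidea lower, and Plin1 (-0.41 ± 0.14), Lep (-0.87 ± 0.34), Retn (0.43 ± 0.18) and Car3 (-1.92 ± 0.72) were not called. Their mean level was -1.60 to -0.62 in HFD and -2.13 to -1.47 in HFD MTX50 mice, and its part in the fall of Cfd was not tested.

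Fat synthesis, given here for context, had 7 of 23 genes called lower and 0 higher, with a median of -0.90, and 0 called without HFD mouse 3, 1 without HFD mouse 2 or 4 and 3 without HFD MTX50 mouse 2 or 3. Scd1, the stearoyl-CoA desaturase, was at 4.87, 5.20, 5.91 and 4.50 in HFD and -1.56, -1.41, 1.71, 2.85 and 4.68 in HFD MTX50 mice, where mouse 5 lay among the HFD values. Its difference was -3.87 ± 1.11 (adjusted p 0.0365) and -6.69 within slide 5. Scd2 (-2.0 ± 0.61), Elovl5 (-1.27 ± 0.40), Fads2 (-1.18 ± 0.25), Fads1 (-0.90 ± 0.23), Agpat2 (-0.49 ± 0.14) and Dgat1 (-0.31 ± 0.09) were the others.

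Outside these lists the largest falls were of a mixed kind. Nat8f5, of the N-acetyltransferase 8 family, was at 0.10, 0.92, 0.71 and 0.65 in HFD and -1.97, -1.93, -3.60, -1.51 and -0.93 in HFD MTX50 mice, a difference of -2.58 ± 0.47 (SE, adjusted p 0.00786, exact permutation p 0.00794). Adgrv1, a very large adhesion receptor, was at -1.28, -0.72, 0.18 and -0.25 and -3.29, -3.74, -2.91, -1.48 and -3.85, a difference of -2.54 ± 0.42 (adjusted p 0.00665). Lamb3, the laminin beta 3 chain, was at -0.40, 0.18, -0.33 and -0.28 and -3.04, -2.84, -2.52, -1.0 and -2.11, a difference of -2.09 ± 0.33 (adjusted p 0.00636). In all 3 the groups did not overlap, which the choice of the largest falls required, and the call held without each mouse in turn.

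Olig1, a transcription factor known from oligodendrocytes, differed by -2.30 ± 0.46 (adjusted p 0.00996, not called under the fixed slide block), and the unnamed gene 9130409I23Rik by -3.50 ± 0.70, with 2 of 5 treated mice well above background. Vmn2r17, a vomeronasal receptor, differed by -2.47 ± 0.63, Gngt1, a gamma subunit of transducin, by -2.02 ± 0.50, and Acaa1b, a peroxisomal thiolase of fatty acid oxidation, by -1.68 ± 0.43. The call was lost without HFD mouse 3 or 4 or HFD MTX50 mouse 5 for Vmn2r17, without HFD mouse 2, 3 or 4 for Gngt1 and without HFD mouse 2, 3 or 4 or HFD MTX50 mouse 5 for Acaa1b. Vat1l and Gm10578 were well above background in all 4 HFD mice and in none of the 5 treated mice, which puts them at least 1.47-fold and at least 1.63-fold lower, measured against the dimmest signal still well above background on each treated array. Their measured differences were -2.12 ± 0.44 (adjusted p 0.0115) and -1.67 ± 0.37 (adjusted p 0.0144). Gm10578 was not called without HFD mouse 3 or HFD mouse 4. With the background model (normexp) as alternative, 9130409I23Rik, Gngt1, Vat1l and Gm10578 turned to positive differences.

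Genes of glucose handling moved in both directions. Of 26 tested, 7 were called lower and 2 higher, in all 0 called without HFD mouse 3 or 4, 1 without HFD mouse 2, 4 without HFD MTX50 mouse 2 or 5 and 5 without HFD MTX50 mouse 3. Ppp1r3g, a subunit that targets protein phosphatase 1 to glycogen, was at -3.19, -1.98, -2.90 and -2.79 in HFD and -5.89, -5.02, -4.59, -3.54 and -7.08 in HFD MTX50 mice, a difference of -2.51 ± 0.68 (SE, adjusted p 0.0299) that was not called without HFD mouse 2, 3 or 4 or HFD MTX50 mouse 5. G6pc, glucose 6-phosphatase, was at 2.81, 2.77, 3.63 and 2.63 and 2.15, 1.37, 1.75, 1.33 and 2.47, a difference of -1.14 ± 0.34 (adjusted p 0.0412). Enzymes of both glycolysis and glucose output were among those lower: Pklr, pyruvate kinase (-0.95 ± 0.27), Khk, ketohexokinase (-0.68 ± 0.20), and Fbp1, fructose bisphosphatase (-0.53 ± 0.15). Irs2, an insulin receptor substrate, differed by -0.40 ± 0.12.

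Igfbp2, a binding protein of insulin-like growth factors, was higher. It was at 3.59, 2.43, 1.31 and 2.16 in HFD and 4.56, 4.56, 4.79, 3.84 and 2.56 in HFD MTX50 mice, where treated mouse 5 lay among the HFD values. The difference was 1.69 ± 0.42 (adjusted p 0.0227), and 2.83 within slide 5. Ppargc1a, a coactivator of oxidative and gluconeogenic genes, differed by 0.76 ± 0.24 (adjusted p 0.0482). Of 34 liver hormones and hormone receptors, Igfbp2, Enho (adropin) and Smoc1 (0.40 ± 0.12) were called higher and 0 lower, with 0 called without HFD mouse 3 or 4 and 5 without HFD MTX50 mouse 5, and with 5 higher and 2 lower with the slide as a fixed block. The 2 probes of Enho were both called but unequal in size, at 0.60 ± 0.12 on the brightest and 2.47 ± 0.35 on the other (adjusted p 0.00421), so that its fold is not settled.

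Of 28 drug-conjugating enzymes tested, 7 were called lower and 0 higher, with a median of -0.45, and all 7 were glutathione S-transferases, which couple glutathione to reactive compounds. The count was 0 without HFD mouse 3, 1 without HFD mouse 4, 3 without HFD mouse 2 and 4 without HFD mouse 1 or HFD MTX50 mouse 3 or 5. Gstm2 was at 2.53, 2.71, 2.71 and 3.10 in HFD and 1.96, 0.95, 1.34, 1.67 and 2.40 in HFD MTX50 mice, a difference of -1.10 ± 0.27 (SE, adjusted p 0.0206, exact permutation p 0.0159). Gsta2 (-1.55 ± 0.47), Gstm3 (-1.40 ± 0.32), Gstm6 (-0.90 ± 0.25), Gstm4 (-0.86 ± 0.23), Gsta3 (-0.51 ± 0.16) and Gstt1 (-0.45 ± 0.10) were the others. Transferases of 1 class are close paralogs, and probes may not separate them.

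Phase 1 enzymes showed no such common direction. Of 34 tested, Cyp3a13 (1.08 ± 0.25) and Cyp2c70 (0.94 ± 0.22) were higher and the carboxylesterase Ces2c, a hydrolase, lower (-0.95 ± 0.23). In all this is no larger a share than over all genes, of which 4.83% were higher and 6.13% lower. The list had 0 called without HFD mouse 3 or 4, 5 without HFD mouse 1, 6 without HFD MTX50 mouse 4 and 7 without HFD MTX50 mouse 3. With the slide as a fixed block 3 were higher and 6 lower. Of 23 bile acid genes Cyp8b1, the sterol 12-alpha-hydroxylase that sets the share of cholic acid, was called lower. It was at 0.58, 1.21, 1.44 and 0.99 in HFD and -0.75, -0.48, -0.57, 0.18 and -1.13 in HFD MTX50 mice, a difference of -1.60 ± 0.31 (SE, adjusted p 0.00925), and was called without each mouse in turn. Of 24 NRF2 targets Akr1b8 was higher (1.02 ± 0.26) and Tkt lower (-0.75 ± 0.17), with 0 called without HFD mouse 3 or 4 and 1 without HFD mouse 2.

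Among 27 genes that are higher in male than female liver, the fatty acid hydroxylases Cyp4a12a (-1.74 ± 0.41, adjusted p 0.0191) and Cyp4a12b (-1.40 ± 0.32, adjusted p 0.0166) were called lower and Socs2 higher (0.94 ± 0.29). These 2 lower and 1 higher are near the 6.13% lower and 4.83% higher of all genes. Cyp4a12a was at 1.55, 1.95, 2.05 and 2.58 in HFD and -0.50, 1.31, 0.51, 1.18 and -1.03 in HFD MTX50 mice, without overlap, and its paralog shares most of its sequence. Of 26 female-biased genes 1 was called higher and 1 lower, again near those shares. The higher was Trim24 (0.73 ± 0.22), a call lost without HFD mouse 1, 2, 3 or 4 or HFD MTX50 mouse 1, 2 or 5. Neither hydroxylase was called without HFD mouse 3 or HFD mouse 4. Socs2 was not called without HFD mouse 2 or 3 or HFD MTX50 mouse 1, 2, 3 or 4, nor with the slide as a random or fixed block.

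The folate and purine pathways are those that methotrexate acts on. Tyms, thymidylate synthase, differed by 0.36 ± 0.17 (adjusted p 0.147), and was named for its role after its values were seen. Of 29 folate genes 2 were called higher and 1 lower, which is near the 4.83% higher and 6.13% lower of all genes. Mthfd2, the mitochondrial methylene-tetrahydrofolate dehydrogenase, was at -4.05, -4.20, -4.14 and -4.09 in HFD and -1.97, -4.10, -3.16, -3.39 and -1.82 in HFD MTX50 mice, with mouse 2 within the HFD range, and differed by 1.23 ± 0.36 (adjusted p 0.0402). Shmt1, the cytosolic serine hydroxymethyltransferase, differed by -0.54 ± 0.13 (adjusted p 0.0206) and Mthfs by 0.28 ± 0.08. The call was lost without HFD mouse 2, 3 or 4 or HFD MTX50 mouse 1 or 5 for Mthfd2, without HFD mouse 2, 3 or 4 for Shmt1 and without HFD mouse 2, 3 or 4 or HFD MTX50 mouse 4 or 5 for Mthfs.

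Of 27 purine genes 4 were called higher and 0 lower, beside 4.83% higher and 6.13% lower of all genes, with 0 called without HFD mouse 3 or 4. Impdh1, of guanine nucleotide synthesis, differed by 1.05 ± 0.26, Pfas, a step of the purine ring, by 0.77 ± 0.16, Ada, adenosine deaminase, by 0.57 ± 0.17, and Prps1, which makes the ribose phosphate donor, by 0.44 ± 0.10. Pfas was at -2.77, -2.90, -2.92 and -2.99 in HFD and -2.19, -2.13, -2.55, -2.09 and -1.68 in HFD MTX50 mice, without overlap. Of 15 genes of the methionine cycle Mat2a, methionine adenosyltransferase, was called higher. It was at 1.75, 1.75, 1.50 and 1.33 and 2.74, 2.61, 2.19, 2.03 and 2.22, a difference of 0.77 ± 0.14 (SE, adjusted p 0.00876, exact permutation p 0.00794), and was called without each mouse in turn.

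Of 30 p53 targets 3 were called higher and 0 lower: Gadd45g (1.15 ± 0.31), Pmaip1, the BH3 protein Noxa (0.90 ± 0.24), and Mdm2, the ubiquitin ligase of p53 (0.52 ± 0.11). Mdm2 was at 1.05, 1.02, 1.11 and 1.03 in HFD and 1.66, 1.43, 1.41, 1.47 and 1.88 in HFD MTX50 mice, a small difference without overlap (adjusted p 0.0125). Cdkn1a, the cell cycle inhibitor p21, was at -4.25, -3.84, -2.78 and -3.61 and -0.82, -0.61, -4.49, -4.35 and -2.77, with treated mice 1 and 2 well above, mouse 5 just above and mice 3 and 4 below the HFD range (adjusted p 0.357), and was named after its values were seen. The list had 0 called without HFD mouse 4, 1 without HFD mouse 2 or 3 or HFD MTX50 mouse 5 and 5 without HFD MTX50 mouse 2. Of 32 cell cycle and replication genes limma called 0 (2 at an unadjusted p below 0.05, and 2 by the methods' t-test), with Bub1b at -0.95 ± 0.47, Ccne2 at 0.91 ± 0.76 and Aurkb at 0.58 ± 0.72. Of 28 genes of the unfolded protein and integrated stress responses Asns, asparagine synthetase, was higher (1.27 ± 0.28, adjusted p 0.0146) and Psat1 lower (-0.62 ± 0.16), while a second Psat1 probe stood at 1.64, so that Psat1 has no settled direction.

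Of 35 stellate cell and matrix genes 4 were called lower and 2 higher, with a median of -0.39, in all 1 called without HFD mouse 4, 2 without HFD mouse 3, 3 without HFD mouse 2 or HFD MTX50 mouse 5 and 10 without HFD mouse 1. Col3a1, a fibrillar collagen, was at -1.56, -0.57, 0.45 and -0.37 in HFD and -1.53, -2.94, -2.20, -1.48 and -1.67 in HFD MTX50 mice, a difference of -1.45 ± 0.41 (adjusted p 0.0344), with HFD mouse 1 below treated mice 1 and 4. Loxl1, a collagen cross-linking enzyme, differed by -0.61 ± 0.11 (adjusted p 0.00819), and Loxl2 (-0.57 ± 0.17) and Col6a2 (-0.52 ± 0.12) were also lower. Mmp14, a matrix metalloproteinase, differed by 0.58 ± 0.13 and Fn1, fibronectin, by 0.47 ± 0.13. The 7 stellate cell markers had 0 called, with mean levels of -1.16 to -0.56 in HFD and -1.40 to -0.99 in HFD MTX50 mice.

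Red cell genes, in the mean of their list, split the treated mice. Hba-a1, alpha globin, was at 3.60, 4.11, 2.91 and 4.24 in HFD and -0.72, -0.63, -0.10, 4.21 and 5.67 in HFD MTX50 mice, so that mice 1, 2 and 3 lay below and mouse 4 within and mouse 5 above the HFD range (adjusted p 0.181). Alas2, the heme synthesis enzyme of red cell precursors, had the same order of treated mice, at -1.23, -0.20, 0.34, 1.23 and 1.39. Its difference was -1.25 ± 0.44 (adjusted p 0.0733), and no split around the HFD range is read from it. Of 19 erythroid genes Epb42 was called higher, at least 2.45-fold, as it was not well above background in any HFD mouse, and Sptb (-0.92 ± 0.22) and Car1 (-0.48 ± 0.10) lower. None of the 3 was called without HFD mouse 3 or HFD mouse 4. Mouse 3 shared slide 6 with mice 4 and 5.

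The remaining lists held few called members, several at or near the share over all genes. Of 24 apolipoprotein and lipoprotein genes 4 were higher and 0 lower, Apom (0.69 ± 0.17), Scarb1 (0.63 ± 0.19), Lcat (0.50 ± 0.13) and Apof (0.41 ± 0.11), with 0 called without HFD mouse 3 or 4, 1 without HFD mouse 2 and 2 without HFD MTX50 mouse 5, and 1 with the slide as a fixed block. Of 40 genes of the urea cycle and amino acid catabolism 4 were lower and 0 higher, Hgd (-0.74 ± 0.17), Agxt2 (-0.44 ± 0.13), Kmo (-0.40 ± 0.12) and Uroc1 (-0.33 ± 0.09), with 0 called without HFD mouse 4, 1 without HFD mouse 2 or 3 or HFD MTX50 mouse 3 and 2 without HFD mouse 1 or HFD MTX50 mouse 2, and 2 with the slide as a fixed block. Of 30 genes of fatty acid oxidation 27 were not called, and Aldh3a2, a fatty aldehyde dehydrogenase, was among the lower (-0.55 ± 0.10), with Ppargc1a higher, and 1 called without HFD mouse 2, 3 or 4 or HFD MTX50 mouse 2. Of 18 uncoupling and thermogenic genes Cidea, Cox7a1 (-0.65 ± 0.20) and Dio2 (-0.42 ± 0.10) were lower, and Ppargc1a was the member called higher, with 1 called without HFD mouse 3 or 4 and 2 without HFD mouse 2 or HFD MTX50 mouse 2, 4 or 5.

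Of 34 respiratory chain subunits 2 were called lower, Ndufb3 (-0.38 ± 0.12) and Ndufs1 (-0.32 ± 0.10), which is near the 6.13% of all genes. In the fit with a fixed slide block 4 were higher and 0 lower, and the list had 0 called without HFD mouse 2, 3 or 4 or HFD MTX50 mouse 2, 1 without HFD mouse 1 or HFD MTX50 mouse 5 and 7 without HFD MTX50 mouse 1, so that no direction is read from it. Of 21 pericentral genes the ammonium transporter Rhbg was lower (-1.11 ± 0.29), a call lost without HFD mouse 2, 3 or 4. Of 24 genes of cholesterol synthesis and uptake limma called 0 (2 at an unadjusted p below 0.05, and 2 by the methods' t-test), with Mvd at -0.70 ± 0.27, Insig1 at -0.67 ± 0.25 and Sqle at 0.63 ± 0.59. Of 21 clock genes it called 0 (3 at an unadjusted p below 0.05, and 4 by the methods' t-test), with Ciart at 0.88 ± 1.15, Cry1 at 0.76 ± 0.31 and Usp2 at 0.75 ± 0.81.

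Cells of other kinds could enter a liver sample, and their markers were read as well. Of 7 bile duct markers Cftr was higher (0.64 ± 0.16) and Cldn7 lower (-0.45 ± 0.11), with mean levels of -3.18 to -2.50 in HFD and -3.26 to -2.75 in HFD MTX50 mice. Of 7 endothelial markers Pecam1 was lower (-0.40 ± 0.11). Of 6 pancreatic acinar markers Ctrb1 was lower (-0.54 ± 0.14), and the mean of the 6 was -1.93 to -1.66 in HFD and -2.48 to -2.01 in HFD MTX50 mice, without overlap. Of 6 markers of intestine or gall bladder Fabp2, which liver also expresses, was lower (-1.35 ± 0.34). Their part in the results above was not tested.

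The same treatment in LFD mice gave a measure of how far these changes belonged to the high fat diet. The LFD and LFD MTX50 mice share no mouse and no slide with the HFD groups, so a difference between the diets in the effect of treatment and a difference between slides cannot be told apart. Of the 15 largest rises 13 had the same direction in LFD mice, 10 of them called there, and of the 15 largest falls 14 had, 10 of them called. Over all genes tested 42.8% had the same direction, and of the 2148 genes called in HFD mice 1037 had. Mt2 differed by 5.15 and Mt1 by 4.84 between LFD MTX50 and LFD, Fgl1 by 2.53 and Il1r1 by 1.13. The median difference of the acute phase list was 0.82 in LFD mice, where 31 of its 34 members had the same direction as in HFD mice, and that of the conjugation list was -0.36, with 24 of 28. The lipid droplet list had a median of -0.17 there against -0.68 in HFD mice, with 12 of 17 in the same direction and the difference between the diets called for 5 of the 17. In fat synthesis the median was -1.15, with 19 of 23 in the same direction and 4 differences called, and in complement and coagulation 0.26, with 25 of 34 and 5.

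The test of the difference itself was called for 26.8% of all genes and for 1138 of the 2148 genes called in HFD mice. Of the 30 largest changes it was called for 6. One of the 6, Vat1l, was not well above background in any treated HFD mouse, so that its 2 differences cannot be compared and it is left aside. Cfd fell by 5.32 ± 0.87 in HFD mice and differed by -1.57 in LFD mice (adjusted p of the difference 0.0341). Fam222a (-0.10 in LFD mice, adjusted p 0.0115) and Arhgap19 (-0.40, adjusted p 0.0158) had differences below 0 there. Nat8f5 and Cyp4a12a differed by more in LFD mice, at -5.80 and -4.13 (adjusted p of the difference 0.00624 and 0.0103). Outside the 30, the difference was also called for Igfbp2, at -0.69 in LFD mice (adjusted p 0.0116), Cidea (-0.48, 0.0329), Cidec (0.49, 0.00612), Pfas (-0.39, 0.00586), Mdm2 (-0.29, 0.00545) and the 3 interferon-stimulated genes, with Irf9 at -0.33 (adjusted p 0.0119).

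**Figure D5:**
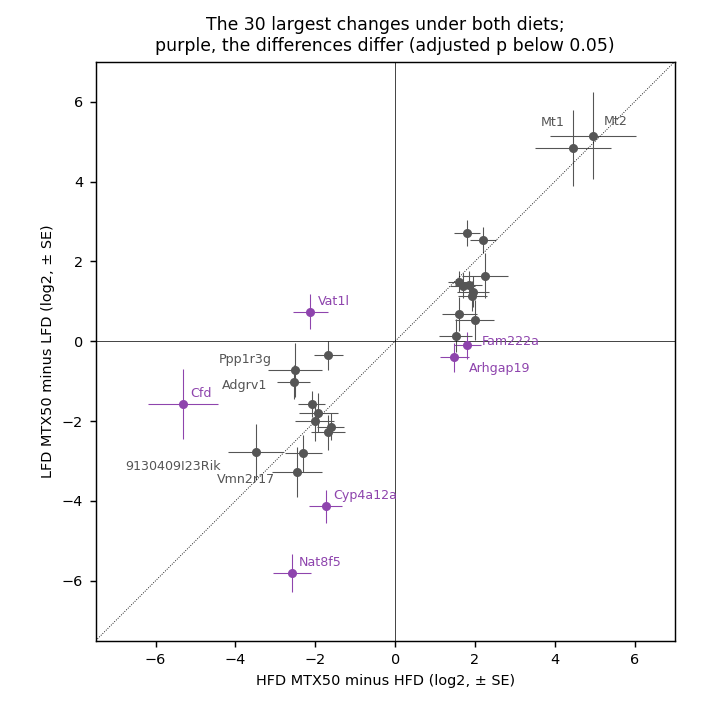
Difference with treatment (log2, ± SE) under the high fat diet (x axis, 5 against 4 mice) and the low fat diet (y axis, 5 against 4 mice) for the 15 largest rises and 15 largest falls of the HFD comparison, with the diagonal of equal change dotted. Most points lay near the diagonal, and the 6 in purple are genes whose 2 differences differed at an adjusted p below 0.05, Vat1l among them on signals below background, with Cfd to the left and Nat8f5 below it.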

How the data were processed

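The authors deposited a scanner file for each array, written by Agilent Feature Extraction (version 10.7.3.1 in the submitters' processing notes), with processed spot intensities that the scanner software had corrected for background, and a table of values that equalled the rounded background-subtracted intensities of the same arrays (largest relative gap 0.00498). Per the labels RNA was extracted with Trizol and RNeasy, amplified and labelled with cy3. Control spots and outlier flags were left out, the log2 of the processed intensity was shifted by each array's 75th percentile, replicate spots were averaged per probe, and a probe stayed in if it was well above background on at least 4 of 18 arrays, which 35739 of 39429 were. Gene names came from the scanner files, which named 71.1% of probes.

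The 4 groups were fitted in 1 model with limma 3.58.1 in R 4.3.3 (with version 1.17.8 of data.table), p-values adjusted by Benjamini-Hochberg across the probes that stayed in, and a gene's level was read on its brightest probe. The methods give 2-fold for the array gene lists and a p of up to 0.015 for the lists they clustered, and name no test for the arrays. The t-test they name for other measurements was run on the arrays as an alternative, called the methods' t-test. The text names the 15 largest rises and falls that were 2-fold, did not overlap and lay above background, up to 6 called members of each of 35 lists (3 by size where 0 passed) and cell type markers. Members and lists were chosen with earlier results of these data known. The background-model alternative (normexp) used median spot signals, since these were the columns held. Some genes are not reported here by name. Scripts were tested on simulated data. Other scalings, filters, models and slide terms, a replicate block and leaving out each mouse were tried.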

Additional observations from a re-analysis of the deposited data

Results flagged for a closer look

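Single mice that stood apart from the rest of their group were screened in 128 genes and in the means of 35 lists, in 2 groups each, by the gap of the highest or lowest mouse to its neighbour relative to the range of the group. Chance alone marks about 1 in 20 groups, and the 12 values marked were no more than that share. They are listed as a description only. Among the HFD mice, mouse 1 lay apart in Cxcl13 at -3.69, in Aldh3a2 at 2.27 and in Uroc1 at 2.30, and mouse 2 in Trim24 at -0.12. Among the HFD MTX50 mice, mouse 1 lay apart in G0s2 at -1.61, mouse 4 in Cidea at -0.095, and mouse 5 in Fn1 at 6.28 and in Apof at 5.50. The marked value of Vat1l, -7.05 in HFD MTX50 mouse 1, was not well above background, as in all 5 treated mice, and has no order among them. The mean of the female-biased list, relative to the HFD mean, was -0.89 in HFD MTX50 mouse 5, that of the unfolded protein and integrated stress response list 0.80 in HFD MTX50 mouse 1, and that of the cell cycle list 0.085 in HFD mouse 2.

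The 30 largest changes were also screened for a difference between the diets in the effect of treatment, tested as the interaction in limma. The difference, HFD minus LFD, was 1.90 for Fam222a, 1.88 for Arhgap19, -3.74 for Cfd, 3.22 for Nat8f5 and 2.40 for Cyp4a12a. The value for Vat1l, -2.86, rests on signals below background in all treated HFD mice and gives no difference between the diets. Diet and slide cannot be told apart in this test.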

How the results depend on the processing

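The 236 changed genes became 0 with the background model (normexp), with the 9 arrays alone, on the shared slide alone and under the methods' t-test after adjustment, which left 212, 399, 844 and 312 genes at an unadjusted p below 0.05 and 2-fold. They became 142 with plain background subtraction and an offset of 50, an alternative chosen after seeing the data. With the slide as fixed block they were 460, and 77 to 375 without 1 mouse in turn. Without the fold limit 2593 genes passed on any probe, and 2148 on the brightest probe. With the replicate block, which pairs mice by number, 147 genes were changed, 139 of them among the 236. The 4 same-number correlations of deviations lay between -0.313 and -0.112. No same-number pair shared a slide, so these values cannot decide whether the numbers pair the mice. The share of higher genes, 41.9%, was 54.8% under quantile normalization, 49.4% when centred on the median of detected probes, 48.8% and 52.8% with the slide as random and fixed block, and 36.9 to 54.6% without 1 mouse in turn. Genes whose treatment effect differed between diets on any probe numbered 6259, while the 26.8% given above (5243 genes) were on the brightest probe. On any probe they were 0 with normexp, 4009 with quantile normalization, 1587 with the slide as random block and 3721 to 7301 without 1 mouse in turn. Normexp moved the median of all genes to 0.39 and set floors (first percentile) from -4.63 to -0.36 across arrays, against -5.09 to -4.39 with the offset. Under it these falls turned positive: 9130409I23Rik 0.44, Ppp1r3g 0.22, Vat1l 1.37, Gngt1 0.047, Gm10578 1.28, Psat1 0.47, Loxl1 0.16, Col6a2 0.54, Sptb 0.72, Rhbg 0.052 and Dio2 0.33. The mean of the probes of Psat1 was 0.51. The causes were not tested. Of the other values of single genes and list counts under an alternative, 4547 kept direction and side of the threshold (list counts, stayed within 1.5 times), 1323 were weaker and 104 stronger. Dim probes have the least precision, as signal over background limits them.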
